A study of Mus musculus with 6 samples.

Results

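Replication-dependent histone genes are described here in thymic regulatory T cells (Treg) of mice, the CD4+ lineage that holds immune responses in check. The members are the rows of the deposited table whose gene symbol begins with Hist1h, Hist2h, Hist3h or Hist4h, without the row marked as a pseudogene copy by its symbol, and they number 63 of 32801 rows. By symbol, 6 are linker histone H1 genes, 17 are H2A, 17 are H2B, 10 are H3 and 13 are H4. Of the members, 47 passed a filter on low values, which asked for 10 or more normalized counts in 3 or more of the 6 libraries, and 16 did not. NOD mice, which become diabetic through autoimmunity without any treatment, gave 3 libraries, and C57BL/6 (B6) mice, on whose sequence the reference genome is built, gave the other 3. Mice of both strains were 3 weeks old, and in both the sort gate was Thy1.1+ CD4+ CD8- GFP-. What GFP and Thy1.1 report in these mice is not given in the sources used here, and neither is any treatment or any further allele. Nothing in the labels says whether the libraries of a strain came from separate animals, so p-values measure the spread between these libraries, which may be technical.

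Histones are the proteins around which DNA is wrapped. H2A pairs with H2B and H3 pairs with H4 to form the core of the nucleosome, and H1 binds the linker DNA between cores. The genes described here are transcribed mainly in S phase, when new DNA has to be packed, and lie in clusters that are transcribed together. Their mRNAs mostly end in a short conserved stem-loop in place of a poly(A) tail, and the stem-loop binding protein Slbp recognises it for processing, translation and decay. Libraries from total RNA, as used here, can hold such mRNAs, whereas selection on poly(A) would deplete them.

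The stem-loop is shown first because it defines this gene family. Its letters were searched on the sense strand of the GENCODE M21 transcripts as a 6-base stem that begins with GG, a 4-base loop and the matching 6-base stem. The loop was to read T, then C or T, then T, then any base but G. Such a stem-loop was found in 43 of 63 members, against 96 of 55341 annotated genes (0.173%). Stems are in capitals and the loop is in lower case.
Most frequent form, in 23 members of H1, H2A, H2B and H3: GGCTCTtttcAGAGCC
Form of Hist1h3f, Hist1h3c, Hist1h3e and 3 other members: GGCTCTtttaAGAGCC
Most frequent H4 form, in 7 members including Hist1h4f: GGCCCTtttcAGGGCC
Form of Hist1h4i and Hist2h4: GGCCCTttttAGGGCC
Form of Hist1h4b and Hist1h4j: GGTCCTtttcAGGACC
All 12 H4 members with a stem-loop carried a stem that no member of the other classes carried. By class, the stem-loop was annotated in 4 of 6 H1, 9 of 17 H2A, 10 of 17 H2B, 8 of 10 H3 and 12 of 13 H4 members. In 22 members the annotated transcript ran on for at least 100 bases past the loop. A member without the letters may have a transcript annotated only to the end of its coding part, so the absence says nothing of the mRNA itself.

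Measured levels are normalized counts, that is, the authors' read counts after division by each library's size factor and rounding. They summed to between 16097369 and 17625903 per library, and the depth estimated from the rounding ran from 15500000 reads in B6 library 20 to 21600000 reads in NOD library 18. Libraries are named by the numbers of their columns, and values are always given for NOD libraries 2, 10 and 18 and for B6 libraries 4, 12 and 20, in that order within each strain. Summed over the 6 Treg markers Foxp3, Il2ra, Ctla4, Ikzf2, Cd3e and Cd4, levels were 102171 to 113699 in NOD and 97182 to 110229 in B6. Marker sums were 238 to 320 in NOD and 250 to 304 in B6 for immature and double-positive thymocytes (6 genes), 5050 to 5504 in NOD and 3499 to 3974 in B6 for B cells (4 genes, mostly Ighm), 366 to 510 in NOD and 866 to 1063 in B6 for dendritic cells and macrophages (6 genes), and 1 to 2 in NOD and 0 to 9 in B6 for erythroid cells (3 genes). Among the thymocyte markers Cd8a was called higher in NOD (86.3 ± 46 in NOD and 15 ± 4.36 in B6, limma adjusted p = 0.0075) and Rag1 lower (57 ± 9.17 in NOD and 122 ± 29.1 in B6, limma adjusted p = 0.017). Ighm (limma adjusted p = 0.008) and, of the Treg markers, Cd3e (limma adjusted p = 0.0022) were also called higher in NOD. Of the dendritic cell and macrophage markers, Cd74 (limma adjusted p = 0.00052) and H2-Aa (limma adjusted p = 0.039) were called lower. No marker was at 0 in all libraries, and the part of these cells in the results below was not tested. In bulk RNA, fewer cells of a type and less RNA per cell cannot be told apart.

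NOD library 10 stood apart from the other NOD libraries in histone RNA. Its level was at least 2-fold over the mean of NOD libraries 2 and 18 for 11 of 11 tested H4 members, 4 of 6 tested H2A members, 1 of 15 H2B, 1 of 10 H3 and 1 of 5 H1 members, against 2.99% of all tested genes. It was the lowest of the 6 libraries in 25 of 34 genes of a list of S phase and cycling genes, whose summed levels were 43553, 29024 and 44183 in NOD and 34528, 32552 and 39331 in B6. Mki67, the proliferation marker, had 5341, 2134 and 5182 normalized counts in NOD and 3714, 3522 and 3962 in B6. Results that rest on this library are given with and without it.

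Across the 47 tested members, 8 fell and 1 rose in NOD Treg relative to B6 Treg, and 38 did not pass the test. In the limma-trend fit over 16442 genes, with Benjamini-Hochberg adjustment and a threshold of 0.05, 5.30% of all tested genes were called lower and 4.59% higher. The 8 lower members were Hist1h3f, Hist1h3c, Hist1h4f and the H2B genes Hist1h2bg, Hist1h2bc, Hist1h2be, Hist1h2bj and Hist1h2bn, and the higher one was the H2B gene Hist1h2ba, which passed the filter on low values only through its NOD libraries. The median log2 fold change, NOD over B6, was -0.28 over tested members and 0.01 over all tested genes. An unadjusted p below 0.05 was seen for 17 of the 47, against 20.3% of all tested genes. Strains did not overlap, with every NOD library lower, for 9 tested members, against 11.9% of all tested genes, and with every NOD library higher for 3, against 12.1%. Without NOD library 10, 19 members were lower, against 5.95% of 17000 genes, and 1 was higher, against 4.49%. The higher one was then Hist1h1a, and Hist1h2ba no longer passed. Among the lower ones, Hist1h2ak passed the filter of that fit only through B6 libraries, in which it is high.

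Class sums, which add the normalized counts of all members of a class per library, differed in how the strains compared. The H2B sum was 2925, 2753 and 2803 in NOD and 4700, 4486 and 4313 in B6, so that the strains did not overlap and the NOD mean of 2827 ± 88.5 was 62.8% of the B6 mean of 4500 ± 194 (SD, n = 3 each). The H3 sum was 1078, 1496 and 1057 in NOD and 1689, 1754 and 1913 in B6, again with no overlap, and the NOD mean of 1210 ± 248 was 67.8% of the B6 mean of 1785 ± 115 (SD, n = 3 each). Most of that H3 gap lay in Hist1h3f (means 43.3 in NOD and 418 in B6) and Hist1h3c (23 in NOD and 202 in B6). The other 8 H3 members were not called with all libraries, and the median log2 fold change over the 10 H3 members was -0.16. The H4 sum was 1670, 7093 and 2037 in NOD and 5878, 4881 and 3392 in B6. H4 thus overlapped between strains. NOD library 10 was the highest of all 6 libraries, 3.83-fold over the mean of the other NOD libraries, which lay below every B6 library. The H2A sum was low, with 236, 300 and 236 in NOD and 264, 212 and 263 in B6. The H1 sum was 11294, 14646 and 10127 in NOD and 11111, 11064 and 11602 in B6, and both H2A and H1 overlapped. Log2 ratios of the strain means were -0.67 for H2B, -0.56 for H3, -0.39 for H4, 0.06 for H2A and 0.09 for H1. Without NOD library 10 the H4 ratio was -1.35 and the H3 ratio was -0.74, and the H1 and H2A ratios turned to -0.07 and -0.06. These sums are a description and were not tested.

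**Figure D1:**
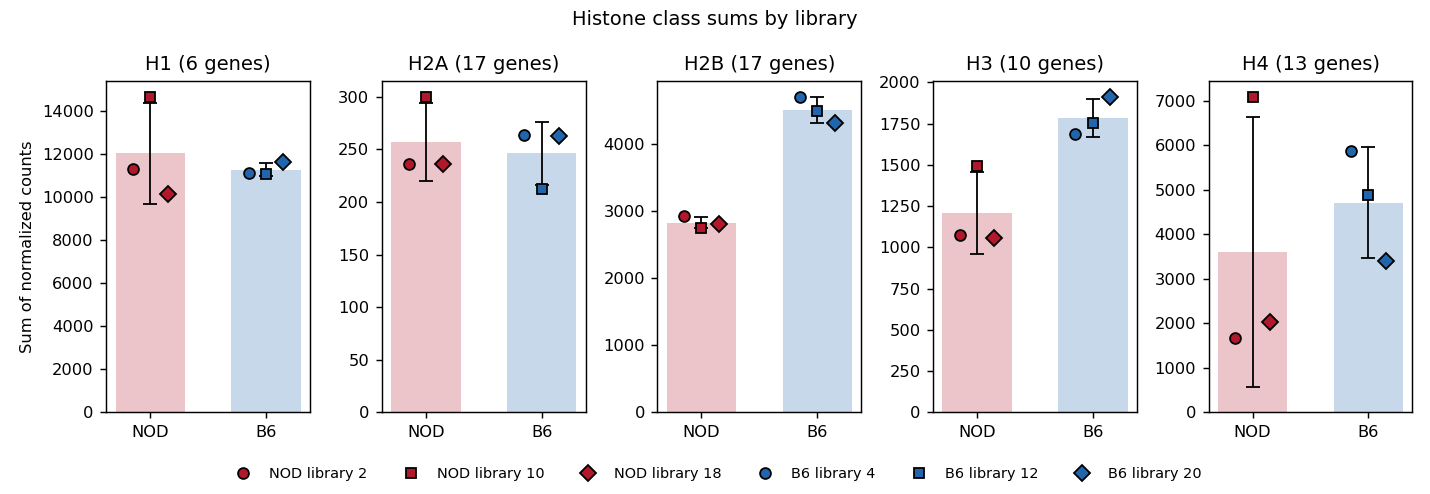
Summed normalized counts per library for each of the 5 histone classes, with NOD libraries left of B6 libraries, points for libraries and bars at the mean ± SD (n = 3 each). H2B runs from 2753 to 2925 in NOD, below the 4313 to 4700 of B6, whereas H4 spans 1670 to 7093 in NOD and 3392 to 5878 in B6.

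H2B had the most members that changed. Of 17 H2B genes, 15 were tested and 9 did not pass. Among those tested 5 fell and 1 rose, against 5.30% of all tested genes called lower and 4.59% higher. Apart from the testis form, the H2B genes encode nearly identical core proteins that pair with H2A. Hist1h2bg had 174, 133 and 133 normalized counts in NOD, against 585, 524 and 435 in B6. No NOD library came near a B6 library, and the log2 fold change was -1.81 ± 0.17 (SE, limma adjusted p = 4.3e-05). Hist1h2be had 431, 475 and 314 in NOD, against 919, 1154 and 654 in B6, with -1.14 ± 0.21 (limma adjusted p = 0.0045, and 0.059 without an intensity trend). Hist1h2be is annotated over a long span that shares 496 bases with that of Hist1h1e on the same strand, so reads there could belong to either gene. Hist1h2bn had 439, 329 and 453 in NOD, against 815, 720 and 664 in B6, with -0.86 ± 0.15 (limma adjusted p = 0.0036). It was the most abundant H2B gene per kilobase of annotated exon (1496 normalized counts per kb over all libraries), and 86.4% of its sequence, counted as 50-base words, also occurs in other annotated genes, most of it in Hist1h2bk. Hist1h2bk itself had 70, 124 and 87 in NOD and 185, 156 and 139 in B6, which did not overlap but did not pass (limma adjusted p = 0.064), and it was called lower without NOD library 10 (-1.02, limma adjusted p = 0.013).

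Hist1h2bj had 81, 103 and 81 normalized counts in NOD, against 180, 182 and 219 in B6, with a log2 fold change of -1.13 ± 0.19 (limma adjusted p = 0.0029). Hist1h2bc had 165, 209 and 80 in NOD, against 334, 312 and 294 in B6, with -1.15 ± 0.29 (limma adjusted p = 0.028), and NOD library 18 was well below the other NOD libraries. The call of Hist1h2bc was lost without B6 library 4 (adjusted p = 0.12), without B6 library 12 (0.093) or without B6 library 20 (0.066). Hist1h2ba, the H2B variant of testis, was the only member called higher. It had 11, 58 and 15 normalized counts in NOD, against 0, 3 and 2 in B6. It passed the filter only through the NOD libraries, in which it is high. Its fold change on the log2(value + 1) scale was 3.29 ± 0.75 (limma adjusted p = 0.016), and with B6 near 0 the size depends on the pseudocount (3.74 with 0.5 and 2.06 with 5). It did not pass without the intensity trend (adjusted p = 0.059), or once NOD library 10 (adjusted p = 0.077) or B6 library 4 (0.061) was left out. Hist1h2bb, abundant per length at 1114 normalized counts per kb, had 503, 414 and 630 in NOD and 603, 465 and 779 in B6, and did not pass (log2 fold change -0.24, limma adjusted p = 0.59). Hist1h2bm had 339, 206 and 303 in NOD and 307, 258 and 328 in B6 (-0.10, limma adjusted p = 0.86). Hist1h2bf did not overlap in the other direction, with 154, 157 and 134 in NOD and 112, 116 and 80 in B6, and did not pass (0.54, limma adjusted p = 0.16).

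**Figure D2:**
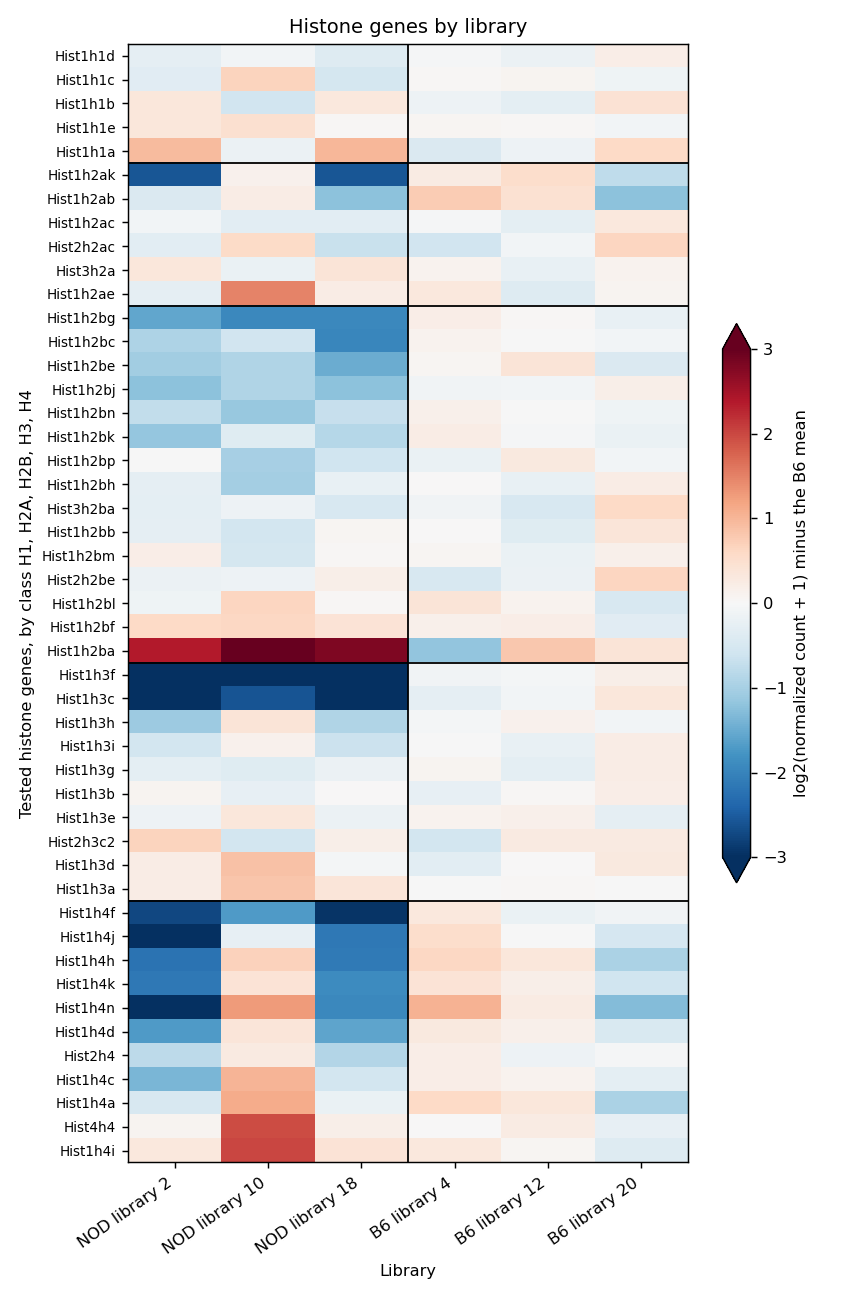
Level of each tested member in each library relative to its mean over the B6 libraries, on the log2(normalized count + 1) scale, grouped by class, with the NOD libraries left of the B6 libraries. Hist1h3f, Hist1h3c and Hist1h4f are low in all NOD libraries, and the H4 rows are higher in NOD library 10 than in the other NOD libraries.

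H3 held the members with the largest falls. All 10 H3 genes were tested and 8 did not pass. In this class 2 fell and 0 rose, against 5.30% of all tested genes called lower and 4.59% higher. Hist1h3f had 48, 42 and 40 normalized counts in NOD, against 388, 398 and 469 in B6, and its log2 fold change was -3.24 ± 0.19 (SE, limma adjusted p = 7.4e-07). Hist1h3c had 15, 32 and 22 in NOD, against 166, 188 and 252 in B6, with -3.12 ± 0.30 (limma adjusted p = 4.6e-05). In both genes the highest NOD library lay far below the lowest B6 library, and NOD library 10 did not stand apart in Hist1h3f. Hist1h3e, which carries the same stem-loop letters as these genes, had 315, 444 and 311 in NOD and 377, 393 and 291 in B6, which overlap (log2 fold change 0.00, limma adjusted p = 0.99). Of the 50-base words of Hist1h3f, 41% occur in Hist1h3e, and reads from such stretches cannot be placed with certainty. Hist1h3i, the most abundant H3 gene per length (594 normalized counts per kb), had 184, 294 and 173 in NOD and 269, 232 and 314 in B6 (-0.35, limma adjusted p = 0.43). Hist1h3b had 164, 132 and 158 in NOD and 132, 160 and 180 in B6 (-0.05, limma adjusted p = 0.93). Hist1h3a had 128, 194 and 141 in NOD and 108, 111 and 108 in B6, which did not overlap but did not pass (0.47, limma adjusted p = 0.22). Left without the members that share over 50% of their sequence with other genes, the H3 sum had a log2 ratio of -1.29 in place of -0.56, since Hist1h3e, Hist1h3i and Hist1h3b are among those. Hist1h3f and Hist1h3c, the only called H3 members, stayed in that smaller sum and weighed more in it. The other members left in it were not called, so the ratio does not describe the class as a whole.

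H4 varied most within a strain. Of 13 H4 genes, 11 were tested, of which 1 fell, 0 rose and 10 did not pass. With 5.30% of all tested genes called lower and 4.59% higher, 1 fall in 11 genes is near the share. Hist1h4f had 96, 198 and 84 normalized counts in NOD, against 801, 563 and 601 in B6, and the log2 fold change was -2.46 ± 0.28 (SE, limma adjusted p = 0.00016). It was the only H4 member whose strains did not overlap, although NOD library 10 was also its highest NOD library. Per length, Hist1h4c was the most abundant H4 gene in NOD, with 1031 normalized counts per kb in NOD and 1010 in B6, whereas Hist1h4f led in B6, with 322 in NOD and 1675 in B6. Hist1h4c had 314, 1662 and 561 in NOD and 944, 875 and 665 in B6. Hist1h4h had 90, 690 and 97 in NOD and 651, 537 and 219 in B6. In Hist1h4c and Hist1h4h, NOD library 10 exceeded every B6 library while the other NOD libraries lay below every B6 library. Neither passed (log2 fold changes -0.30 and -1.22, limma adjusted p = 0.80 and 0.36). Hist1h4n had 26, 521 and 55 in NOD and 444, 253 and 86 in B6, so NOD library 10 was 12.9-fold over the mean of the other NOD libraries. Hist1h4i ran the other way, with 104, 338 and 112 in NOD and 105, 88 and 64 in B6 (0.90, limma adjusted p = 0.23), and the authors' deposited table called it higher (log2 fold change 1.1, adjusted p = 0.046).

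Without NOD library 10, 8 of 11 tested H4 members were called lower, against 5.95% of all genes in that fit. They were Hist1h4f (log2 fold change -2.84), Hist1h4j (-2.71), Hist1h4n (-2.46), Hist1h4h (-2.17), Hist1h4k (-2.02), Hist1h4d (-1.63), Hist1h4c (-0.96) and Hist2h4 (-0.83), with limma adjusted p from 2.4e-06 to 0.019. Hist1h4a (-0.34) and Hist1h4i (0.36) were among those that did not pass. The same fit called 1 of 5 H1 members lower, 1 of 6 H2A, 6 of 15 H2B and 3 of 10 H3. The H2A member was Hist1h2ak, which passed the filter of that fit only through B6 libraries. Whether the H4 genes as a group were lower in NOD thus depended on 1 library, and with only 2 NOD libraries left the fit has less to set its spread by.

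Across the 6 libraries H4 levels ran nearly opposite to the levels of cycling genes, and H2B levels did not follow the same order. Listed from the highest H4 sum to the lowest, the libraries were NOD 10 (7093), B6 4 (5878), B6 12 (4881), B6 20 (3392), NOD 18 (2037) and NOD 2 (1670). The summed cycling genes were 29024, 34528, 32552, 39331, 44183 and 43553 in these libraries, from low to high but for a swap within each of 2 neighbouring pairs. The corresponding H2B sums were 2753, 4700, 4486, 4313, 2803 and 2925, which split by strain. This order is a description of 6 libraries, and the part of cell cycle state in the strain differences was not tested. Of the 34 cycling genes, all tested, 1 rose and 0 fell in NOD, with a median log2 fold change of 0.15. Over all tested genes 4.59% were called higher and 5.30% lower. The riser was E2f2, a transcription factor of the cell cycle, with 1617, 1799 and 1831 in NOD, against 1070, 1113 and 1220 in B6 (0.62 ± 0.11, limma adjusted p = 0.003). Pcna, the sliding clamp of DNA replication, had 3310, 3117 and 3551 in NOD and 3622, 3977 and 4486 in B6 (-0.27, limma adjusted p = 0.19). Without NOD library 10, 7 of the 34 cycling genes were called higher, against 4.49% of 17000 genes in that fit.

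**Figure D3:**
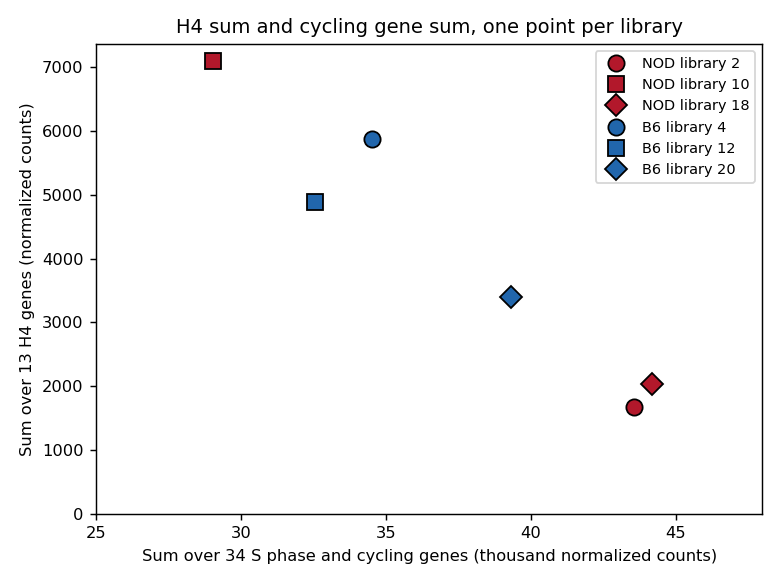
Summed normalized counts of the 13 H4 members against those of the 34 cycling genes, one point per library, NOD and B6 marked apart. NOD library 10 lies at 29024 for cycling genes and 7093 for H4, the lowest and highest values of the 6 libraries.

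H2A was barely detected by comparison with its partner H2B. Of 17 H2A genes, 6 were tested, and none of these passed, against 9.89% of all tested genes called in either direction. At an unadjusted p below 0.05 the count was 0 as well, against 20.3% of all tested genes, and the authors' deposited table called 0. Hist3h2a, the most abundant per length at 58.4 normalized counts per kb, had 147, 101 and 153 in NOD and 126, 99 and 126 in B6. Hist2h2ac had 17, 32 and 13 in NOD and 14, 20 and 34 in B6, and Hist1h2ae had 13, 47 and 19 in NOD and 20, 12 and 17 in B6. Hist1h2ak had the lowest H2A fold change (-1.67, limma adjusted p = 0.26), with 1, 12 and 1 in NOD and 13, 16 and 6 in B6. Without NOD library 10 it was called lower (-2.57, limma adjusted p = 0.043). In that fit it passed the filter on low values only through B6 libraries, in which it is high. NOD library 10 was the highest NOD library in 3 of these 4 genes. Of the 17 H2A members, 14 had at least 50% of their 50-base words in other annotated genes. Over the protein-coding H2A members, the median level was 6.15 normalized counts per kb for 12 with at least 50% shared and 30.3 for 3 with less. In H4 it was 277 with at least 50% shared and 552 with less, but H2B (272 and 155) and H3 (238 and 181) ran the other way, and no H1 member reached 50%. How the authors' counting treated reads with several matching places is not given in the sources used here, and its part in these levels was not tested.

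H1 genes gave the largest levels and no calls. Of 6 H1 genes, 5 were tested and none passed, against 9.89% of all tested genes called in either direction. With so few genes such a count is near that share. At an unadjusted p below 0.05 there was 1, against 20.3% of all tested genes, and 0 were called in the authors' deposited table. Hist1h1c, a somatic linker histone, had 4250, 8616 and 3728 normalized counts in NOD and 5590, 5739 and 4941 in B6, and at 3511 per kb it was the most abundant member of the family. NOD library 10 was the highest of the 6 libraries, as in H4. Hist1h1a had 1316, 607 and 1359 in NOD and 506, 612 and 1029 in B6, and Hist1h1b had 1609, 850 and 1579 in NOD and 1151, 1044 and 1704 in B6. In these genes NOD library 10 was the lowest NOD library, the reverse of Hist1h1c. Hist1h1e had 2772, 3035 and 2223 in NOD and 2272, 2221 and 2046 in B6 (0.29 ± 0.13, limma adjusted p = 0.23). Hist1h1d had 1345, 1533 and 1235 in NOD and 1587, 1445 and 1877 in B6 (-0.25, limma adjusted p = 0.32). Without NOD library 10, Hist1h1a was called higher (0.97, limma adjusted p = 0.022) and Hist1h1c lower (-0.44, limma adjusted p = 0.028). Sequence sharing with other genes was 0% for Hist1h1a and Hist1h1b and 8.5% for Hist1h1c.

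**Figure D4:**
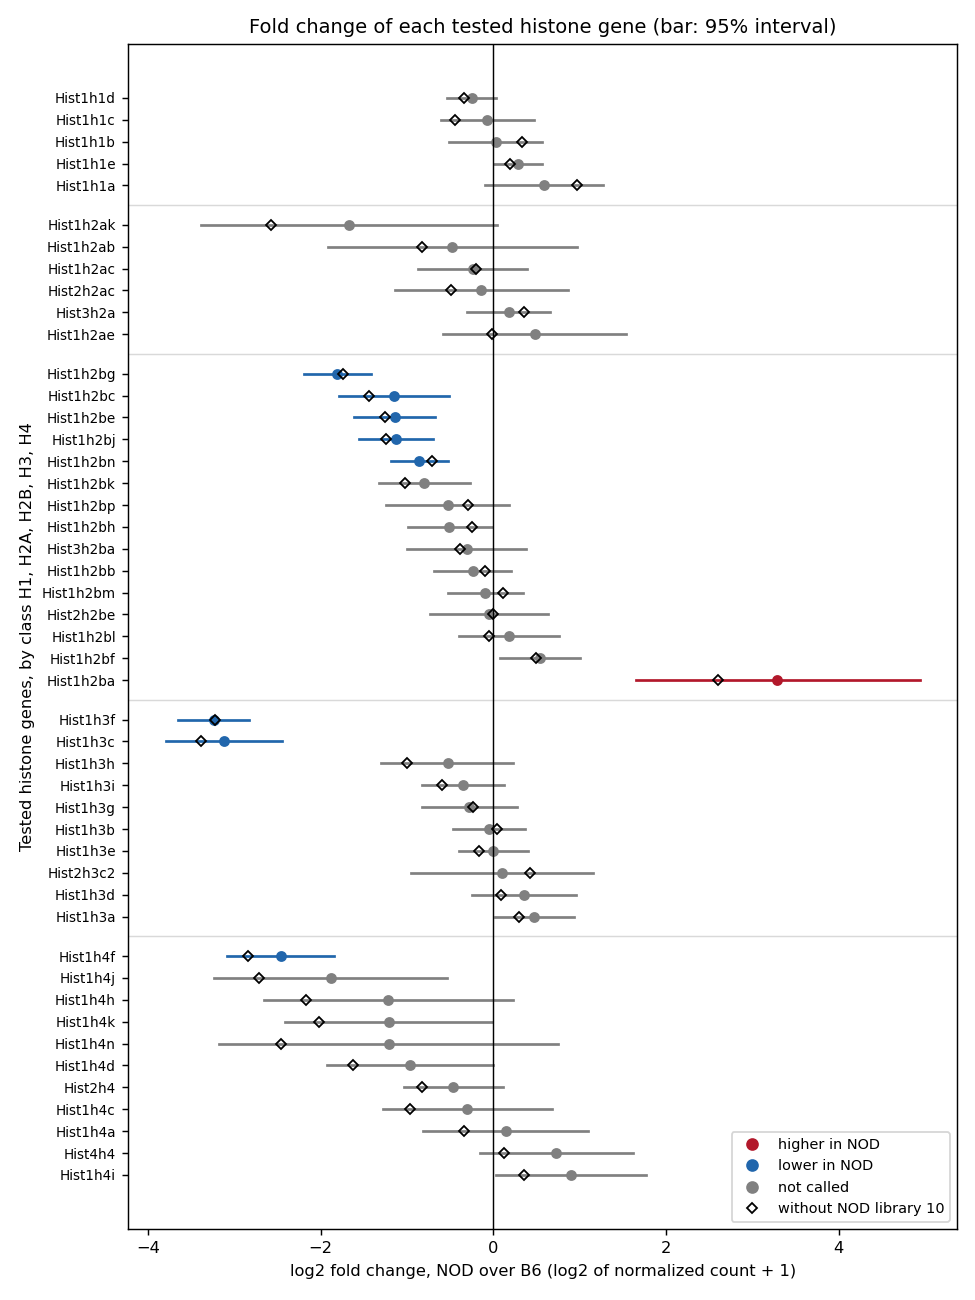
Log2 fold change, NOD over B6, of the 47 tested members with 95% intervals, grouped by class, with members called at an adjusted p below 0.05 marked. Hist1h3f (-3.24), Hist1h3c (-3.12) and Hist1h4f (-2.46) lie farthest below 0 and Hist1h2ba (3.29) farthest above.

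The 16 untested members reached at most 26 normalized counts, and 12 of them stayed under 10 in every library. They comprise 11 H2A genes, 2 H2B, 2 H4 and Hist1h1t, the linker histone of testis. The value of 26 was that of Hist1h2al in NOD library 10, where the other libraries had 0 or 1. Hist1h2br had 4, 21 and 1 in NOD and 2, 2 and 2 in B6. GENCODE lists Hist1h2al and Hist1h2aj as pseudogenes and the other 61 members as protein coding.

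Position did not group the changed members strictly. On GRCm38, 55 members lie on chromosome 13, 5 on chromosome 3, 2 on chromosome 11 and 1 on chromosome 6. The chromosome 13 block chr13:23531050-23764406 held 29 members, of which 25 were tested and 6 fell, among them Hist1h3f, Hist1h4f, Hist1h2bg, Hist1h2be, Hist1h2bc and Hist1h3c. The block chr13:21715763-21837530 held 19 members, of which 11 were tested and Hist1h2bn fell. The block chr13:22035164-22043676 held 5, of which 3 were tested and Hist1h2bj fell. For comparison, 5.30% of all tested genes were called lower, and a count of 1 among so few genes says little of a block. Within the first of these blocks Hist1h3f (chr13:23544052-23545312, + strand), Hist1h4f (chr13:23551258-23551648, - strand) and Hist1h3e (chr13:23561534-23562369, - strand) are close neighbours, and Hist1h3e did not pass. None of the 7 tested members on chromosomes 3, 6 and 11 was called, against 9.89% of all tested genes called in either direction. That count too is near the share, given so few genes.

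Many histone genes start back to back with a partner. There were 13 pairs on opposite strands with starts at most 1000 bases apart, of which 12 joined an H2A to an H2B gene and 5 had both members tested. In 4 of these 5 one member fell and the other did not pass, and in 0 did both fall. Over all tested genes only 5.30% were called lower, so the 0 among so few pairs says little of partners. The log2 fold changes were -1.81 for Hist1h2bg and 0.48 for Hist1h2ae, -1.15 for Hist1h2bc and -0.24 for Hist1h2ac, -0.86 for Hist1h2bn and -1.67 for Hist1h2ak, and -3.24 for Hist1h3f and -0.51 for Hist1h2bh. Hist1h2ak had the lower value of its pair at 1 to 16 normalized counts, where the test has little to go on. Counts were also low for Hist1h2ae (12 to 47) and Hist1h2ac (36 to 57). The difference between partners was not tested, and the strand setting of the counting is not given in the sources used here.

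Promoter windows are shown for Hist1h2bg, which shares its promoter with Hist1h2ae, and for Hist1h3c and Hist1h4f. The latter are the lower members of other classes with a matched window, which Hist1h3f did not have. RefSeq windows on GRCm38.p6 run from 250 bases before to 50 after the annotated start, and 55 of 63 members were matched. Capitals mark the letters ATTTGCAT (the octamer, bound by Oct factors), CCAAT (the CCAAT box) and TATAAA (the TATA box) on either strand, and no match overlaps another in these windows.
Hist1h2bg, chr13:23571150-23571449, + strand: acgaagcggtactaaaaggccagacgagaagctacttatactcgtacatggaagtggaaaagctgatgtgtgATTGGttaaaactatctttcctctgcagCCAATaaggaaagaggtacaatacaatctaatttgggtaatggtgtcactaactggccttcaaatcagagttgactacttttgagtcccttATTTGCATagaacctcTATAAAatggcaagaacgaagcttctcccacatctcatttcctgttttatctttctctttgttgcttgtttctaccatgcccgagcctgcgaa
Hist1h3c, chr13:23745472-23745771, - strand: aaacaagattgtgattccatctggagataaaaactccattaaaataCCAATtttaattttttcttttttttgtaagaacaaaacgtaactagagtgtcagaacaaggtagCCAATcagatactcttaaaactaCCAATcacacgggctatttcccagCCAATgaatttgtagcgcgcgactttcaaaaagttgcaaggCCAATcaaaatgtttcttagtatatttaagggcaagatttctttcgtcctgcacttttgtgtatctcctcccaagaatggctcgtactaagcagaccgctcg
Hist1h4f, chr13:23551619-23551918, - strand: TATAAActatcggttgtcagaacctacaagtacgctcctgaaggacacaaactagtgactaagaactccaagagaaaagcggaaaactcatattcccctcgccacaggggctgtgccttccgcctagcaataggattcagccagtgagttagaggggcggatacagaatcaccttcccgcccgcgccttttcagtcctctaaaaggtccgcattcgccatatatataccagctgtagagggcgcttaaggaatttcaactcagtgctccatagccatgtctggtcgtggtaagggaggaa
In Hist1h4f the TATAAA letters stand at the far end of the window, 250 bases before the start. The window of Hist1h2bg overlaps that of Hist1h2ae by 279 bases, so the same octamer and CCAAT letters lie before both genes. The octamer was present in 6 of 14 H2A and 5 of 15 H2B windows and in 0 of the H1, H3 and H4 windows, against 1.74% of 32851 windows of the table. CCAAT was present in every window of H1, H2A, H2B and H3 members but in 3 of 12 H4 windows, 83.6% of the members' windows in all, against 37.4% of all windows. TATAAA was present in 60% of the members' windows, against 13.6% of all windows. These matches describe letters and are not shown to be bound.

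Genes that serve histone supply were read from the same fit, in which 5.30% of all tested genes were called lower and 4.59% higher. Of 23 tested genes of histone mRNA processing and decay, 0 passed with limma, the 2 most direct being Slbp with 2213, 1847 and 2345 normalized counts in NOD and 1912, 1881 and 2374 in B6 (log2 fold change 0.06, adjusted p = 0.88), and Npat, the coactivator of histone gene transcription, with 1591, 1636 and 1803 in NOD and 1527, 1533 and 1541 in B6 (0.13, adjusted p = 0.57). Of 22 histone chaperones, 2 fell and 0 rose, against 9.89% of all tested genes called in either direction. Hjurp, which deposits the centromeric histone Cenpa, had 1703, 1687 and 1679 in NOD, against 3256, 3060 and 3260 in B6 (-0.92 ± 0.09, limma adjusted p = 7.3e-05). Cabin1, a subunit of the complex that deposits the histone variant H3.3, had 1468, 1404 and 1039 in NOD, against 1904, 1857 and 1733 in B6 (-0.51 ± 0.14, limma adjusted p = 0.039). The number of lower chaperones was 1 without NOD library 18 or without B6 library 4, 12 or 20. Of 9 tested histone variant genes that are expressed outside S phase, 1 rose and 0 fell. That gene was H1f0, the linker histone of resting cells, with 1194, 1410 and 1252 in NOD, against 981, 849 and 1046 in B6, at the edge of the threshold (0.42 ± 0.12, limma adjusted p = 0.0498). No variant gene was called higher without NOD library 2, 10 or 18 or without B6 library 4 or 12.

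The authors' own test gave a similar set of members. An adjusted p was given for 56 members in the authors' deposited table, of which 7 were lower and 2 higher at a threshold of 0.05, against 5.06% lower and 4.68% higher of 21988 genes. Of the 9 members called with limma, 8 were also called there. The exception was Hist1h2bc, with a log2 fold change of -1.06 and an adjusted p of 0.059 in the authors' deposited table, which in turn called Hist1h4i.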

How the data were processed

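Libraries of 3 NOD and 3 B6 samples were made from total RNA (miRNeasy micro kit) with the TruSeq Standard Total RNA LT kit, per the labels' protocols. Trimmomatic, STAR, DESeq2 and mm10 are named in the submitters' processing notes. Which counter, annotation and strand setting were used is not given in the sources used here. The deposited scores are read counts over a size factor, rounded by the authors to whole numbers, per the file headers and the values. The deposited table also gives the authors' log2 fold changes with standard errors (log2), their mean and statistic (scores), and their p-values.

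Log2(value + 1) was fitted with limma 3.58.1 (R 4.3.3) with an intensity trend and strain as the only term. Genes needed 10 normalized counts in 3 libraries, or in 2 where a library was left out. Two-sided p-values were adjusted by Benjamini-Hochberg over all tested genes, and the fit was tested on simulated data. Chi-square per gene between libraries of the same strain ran from 15.9 to 115, more than sampling noise. Python 3.11.15 (pandas 2.3.3, numpy 2.4.6) gave sums, stem-loops, motifs and shared 50-base words (GENCODE M21), and matplotlib 3.10.9 the plots.

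Members and gene lists were chosen with earlier results of these data known. Named members are those called, the 3 most abundant per kilobase and the extreme fold changes of each class, and named companion genes are those called plus Slbp, Npat, Mki67 and Pcna. Hist1h2bk, Hist1h2bf, Hist1h4n, Hist1h4a, Hist1h2al, Hist1h2br, the H4 members called without NOD library 10 and the partners in pairs were chosen after their values were seen. Alternatives in scaling, filter, pseudocount, trend and libraries are given in the closing section. Bases at which NOD differs from the reference genome were not analysed here.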

Additional observations from a re-analysis of the deposited data

How the results depend on the processing

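The 9 histone calls were the same genes with a pseudocount of 0.5 or 5, no filter, or libraries scaled to the same total, upper quartile or quantiles. Higher members were 0 with a filter of 50 normalized counts and 0 without the intensity trend, which also lost Hist1h2bc and Hist1h2be. Leaving out each library gave 7 to 19 lower and 0 to 1 higher members, and 569 to 1011 lower and 490 to 781 higher genes in all. Class ratios (log2) ranged from -0.70 to -0.64 for H2B, -0.74 to -0.47 for H3, -1.35 to -0.05 for H4, -0.06 to 0.12 for H2A and -0.07 to 0.20 for H1. The H2B ratio was -0.57 without Hist1h2be, the H2B member with the highest mean normalized count. The H3 ratio was -1.29 without members with over 50% shared sequence, a smaller sum in which Hist1h3f and Hist1h3c weigh more. The cause was not tested.

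Higher variant genes were 0 with a pseudocount of 0.5, no filter, the same total or no trend, and lower chaperones were 1 with no filter or no trend. Leaving out libraries gave 0 to 1 higher and 0 to 1 lower variant genes, 0 to 1 higher and 1 to 2 lower chaperones, 0 to 1 higher processing genes and 1 to 7 higher cycling genes. Signs turned for Hist1h1b (-0.01) and Hist1h3e (-0.04) with the same total and Hist1h3e (-0.01) with the same upper quartile. With libraries left out they also turned for Hist1h1b (-0.13 to 0.33), Hist1h1c (-0.44 to 0.16), Hist1h4c (-0.96 to 0.24), Hist1h2ae (-0.02 to 0.87), Hist1h2bm (-0.24 to 0.11), Hist1h3b (-0.17 to 0.05), Hist1h3e (-0.16 to 0.09) and Hist2h2ac (-0.49 to 0.19), none of which passed except those named above without NOD library 10. No paired analysis was possible because the column numbers cannot be matched to the replicate numbers of the labels and the strains' columns share no number. The 16 members under the filter, 11 of them H2A, were not tested in the main fit. With no filter all 63 members were tested and none of the 16 was called. At their low counts a difference may still have been missed.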
